A study of Mus musculus with 16 samples.

Results

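The occupancy of chromatin by RNA polymerase II (Pol2) was compared between LPS-treated mouse splenic B cells with and without 10058-F4, using 4 of the 16 libraries of a ChIP-seq series on Myc in activated lymphocytes. The libraries were taken by their titles: 1 Pol2 library with its IgG control from cells given LPS alone, and 1 Pol2 library with its IgG control from cells given LPS and 10058-F4. Both groups were described as B cells of the spleen, cultured and exposed for 4 h to 25 µg/ml of LPS, a component of the bacterial outer membrane that activates B cells. The dose of 10058-F4 and any vehicle given to the other cells are not given in the labels. The titles of the Pol2 and IgG libraries without 10058-F4 carry the mark "wt", which the labels do not explain. Pol2 was precipitated with the antibody Abcam ab5408 and the controls with the non-specific IgG Santa Cruz sc-2025. The labels do not say how many animals gave each library.

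Pol2 is the enzyme that transcribes protein-coding genes. Its ChIP-seq signal usually forms a sharp peak where it engages and pauses near gene starts and a lower, broad signal along genes that are being transcribed, so the height of a peak and the signal beside it describe different stages of transcription. Myc is a transcription factor that binds DNA with its partner Max, mostly at promoters that are already active, and is known for promoting the release of paused Pol2. 10058-F4 is a compound that keeps Myc and Max from forming their dimer. LPS induces Myc in B cells as they leave quiescence.

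Several descriptions of the Pol2 signal were compared: the height of the peak, the width of the occupied domain, the signal in the flanks relative to the summit, and the share of all reads that fell in occupied bins. Each side had 1 Pol2 library, so there was no replicate check and no test between conditions. A difference between the treatments and a difference between the preparations of the 2 libraries cannot be told apart here. The 95% intervals below cover counting error only. In bulk chromatin, more Pol2 per cell and more cells with Pol2 at a site cannot be told apart either.

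On chromosomes 1 to 19 the Pol2 library of cells given LPS alone held 2377368 reads and that of cells given LPS and 10058-F4 held 5130471. Their IgG controls held 1278471 and 2109515 reads. The deeper library of each pair was therefore reduced at random to the depth of the shallower one, and read counts below are at that equal depth. Reads were 45 bases long in all 4 libraries, and the offset between strands, a measure of fragment length, was 162 bases for Pol2 with LPS alone and 142 bases for Pol2 with 10058-F4. Reads on chromosome X came to 35.1 to 38.7% of those on chromosome 3 in these 4 libraries, against 60.1 to 69.8% in the other 6 libraries of LPS-treated B cells, which were made with anti-EGFP or IgG. The 4 libraries were thus alike on this measure and stood apart from the 6, which served below for ranking regions, as a yardstick between libraries and, for IgG, as other controls.

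Occupied bins of 500 bp were called on the sum of both equal-depth Pol2 libraries, so that both libraries entered their choice at the same number of reads. This gave 63247 bins, which covered 31623.5 kb or 1.28% of the bins of these chromosomes, and adjacent bins joined into 35056 regions. Most regions were short: 57.9% were a single bin, and the longest spanned 25000 bp. Regions were ranked by the summed Pol2 reads in 500 bp around their summit and split into 10 deciles of level, from 6 to 9 reads in the lowest to 83 to 375 in the highest. The summit bin was also called in the library with LPS alone on its own at 16782 regions (47.9%) and in the library with 10058-F4 on its own at 24638 (70.3%). Both libraries called it at 13367 regions, LPS alone only at 3415, 10058-F4 only at 11271, and 7003 were called only when the libraries were summed. Regions are given by their mm8 coordinates, and genes were not assigned to them because no mm8 annotation was used here; the labelled cell type was not checked against marker genes for the same reason.

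The Pol2 library with 10058-F4 was the more concentrated of the pair. Occupied bins held 42.9% of its reads (95% exact binomial interval 42.88 to 43.00%), against 29.6% (29.55 to 29.67%) with LPS alone, a ratio of 1.45. The same bins held 3.13% of the IgG reads with 10058-F4 and 4.12% with LPS alone, so the control differed in the opposite direction. Outside these bins lay 57.1% of the Pol2 reads with 10058-F4 and 70.4% with LPS alone. In other libraries of LPS-treated B cells the bins held 2.67 to 3.20% of IgG reads, 6.14 and 4.04% of the reads of both Myc libraries, and 3.90% of those of Myc with 10058-F4.

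The same direction was seen without a call. The fullest 1% of all 500 bp bins, chosen in each library separately, held 41.7% of the reads with 10058-F4 and 29.2% with LPS alone, against 13.3 and 14.6% in the IgG controls. When each Pol2 library was called on its own against its own IgG, 27808 regions were found with 10058-F4 and 20046 with LPS alone. They held 41.6 and 22.8% of the reads. Of the regions with LPS alone, 75.7% (75.1 to 76.3%) overlapped a region with 10058-F4, and of the regions with 10058-F4, 52.6% (52.0 to 53.2%) overlapped one with LPS alone. The overlapping regions were close in number, 15178 and 14625, so these shares differ with the number of regions called. The calls took 0.632% of all bins with LPS alone and 1.03% with 10058-F4.

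Peaks were higher with 10058-F4 in this pair of libraries. Summed over all regions, the summits carried a mean of 20.6 reads with 10058-F4 and 13.8 with LPS alone. After subtraction of scaled IgG reads the ratio was 1.59 (1.58 to 1.59). By level, per library size, it was 0.947 (0.922 to 0.972) in the lowest decile, passed 1 in the second at 1.09, and climbed to 1.77 (1.74 to 1.79) in the seventh. From there it declined in each step to 1.61 (1.59 to 1.62) in the highest decile. In that decile the summits held a mean of 67.9 reads with 10058-F4 and 44.1 with LPS alone, against 1.02 and 2.47 scaled IgG reads. These IgG values are counts multiplied by a scale from background bins, 0.805 with 10058-F4 and 1.29 with LPS alone. Scaled to library size only, the IgG means were closer to each other, at 0.993 and 1.50 reads scaled to library size (RPM). In the lowest decile the Pol2 means were 3.73 and 3.97 reads, so the regions there were near the limit of what this depth can show.

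The values of the low deciles changed when the reads that chose the regions were not those that measured them. In a comparison added after the data were seen, regions, summits and deciles were taken from a random 50% of the reads of each library and the values from the remaining reads. This gave 23872 regions, fewer than with all reads, with a ratio of 1.66 (1.65 to 1.67). Its deciles therefore do not hold the same regions as those above. The change of regions and the change of reads were not told apart. The lowest decile then had means of 2.55 reads with 10058-F4 and 1.95 with LPS alone and a ratio of 1.48 (1.41 to 1.56). The second had 1.64, the fifth 1.76 (1.72 to 1.81), the seventh 1.73 and the highest 1.58 (1.56 to 1.60). No decile was below 1 in these reads. Scaled to background bins instead of to library size, none was below 1 with all reads either: the ratio was 1.42 in the lowest, 1.64 in the second and 2.66 in the seventh. The values by level of single regions, runs of called bins, isolated regions and Myc groups below were taken with all reads, which both chose and measured the regions.

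**Figure D1:**
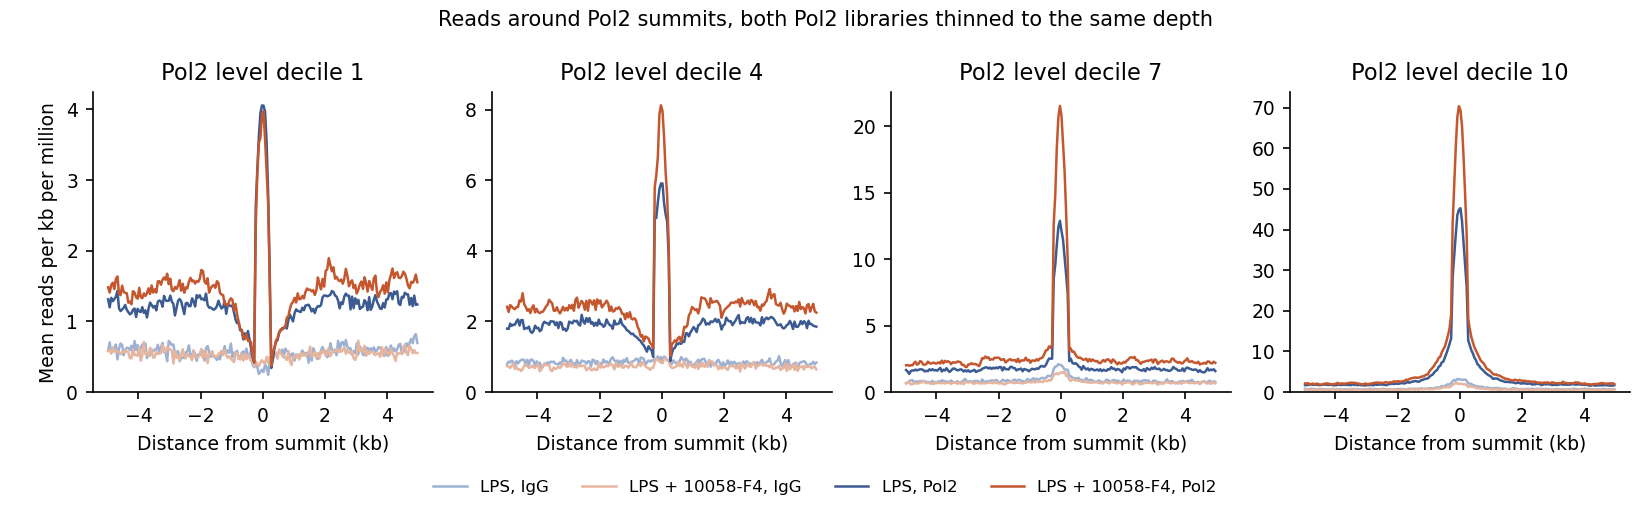
Mean reads per kb, scaled to library size, against the distance from the Pol2 summit in kb, for regions of Pol2 level deciles 1, 4, 7 and 10, with both Pol2 libraries at equal depth and their IgG controls in pale colours. The curves of both Pol2 libraries lie together at the summit of decile 1, per library size, and the curve with 10058-F4 is the higher one at the summit in deciles 4, 7 and 10. The step 250 bp from the summit is the edge of the window chosen to hold the most of these reads, and the vertical axes differ between panels.

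These 4 libraries hold at most 1 read per position and strand, which limits how high a dense peak can appear and acts more on the deeper library. At full depth, reads occupied 14.3% of the positions at summits of the highest decile with 10058-F4 and 4.41% with LPS alone. With a correction for occupied positions, added after the data were seen, the ratio in the highest decile was 1.73, against 1.81 in the seventh. The size of the ratio also depended on which library chose the regions: over all regions it was 1.41 in regions called in LPS alone and 1.77 in regions called with 10058-F4. It depended on the scale as well. Reads in 10 kb background bins were 0.665 times as many with 10058-F4 as with LPS alone at equal depth. Scaled to those bins instead of to library size, the summit ratio over all regions was 2.39 and that of the highest decile was 2.41.

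**Figure D2:**
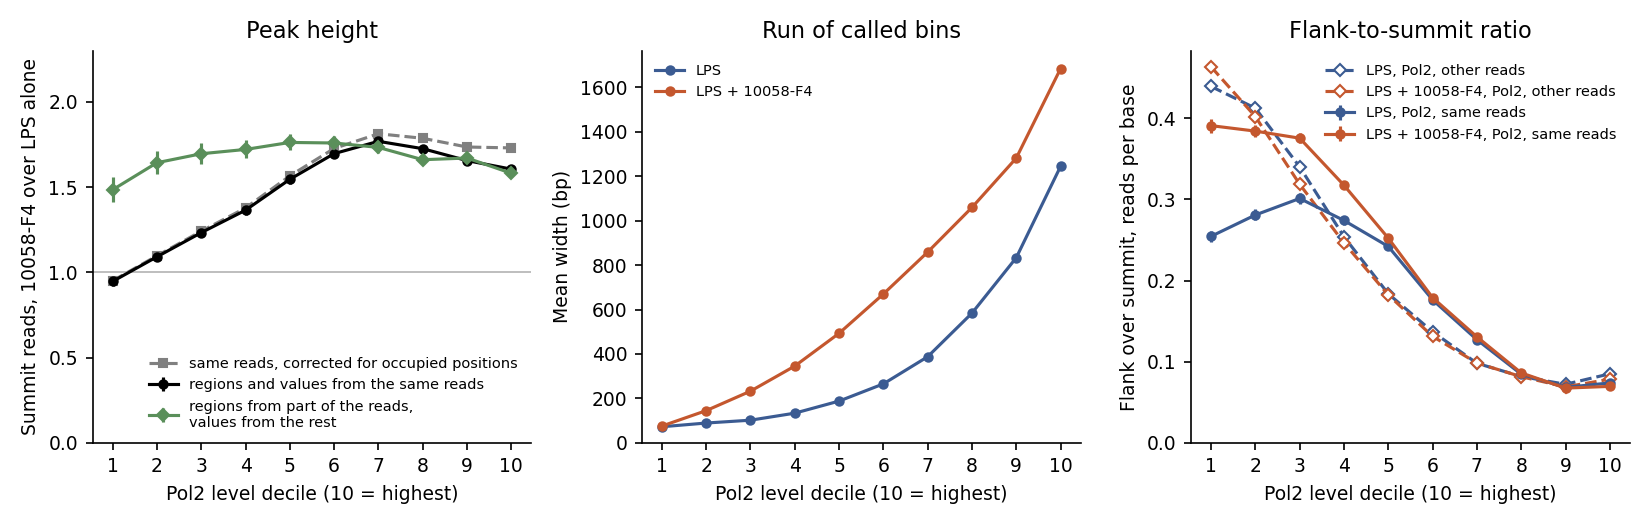
Peak height as the IgG-subtracted ratio of summit reads per library size (10058-F4 over LPS alone), mean run of called bins in bp and flank-to-summit ratio of reads per base, each against the decile of Pol2 level, with bars for 95% counting intervals where given. With the same reads for regions and values the height ratio is 0.947 in decile 1 and 1.77 in decile 7 and the flank-to-summit ratios separate in the low deciles. With values from reads that took no part in choosing the regions, the height ratio is 1.48 in decile 1 and the flank-to-summit ratios of both libraries lie close together; scaled to background bins no height ratio is below 1.

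Single regions varied around these sums. The log2 ratio of summit reads had a median of 0.50 (0.49 to 0.51) over all regions, and 67.8% of regions had more reads with 10058-F4. In the highest decile the median was 0.63 (0.61 to 0.65), 3140 of 3505 regions (89.6%) were higher with 10058-F4 and 324 were lower. The median was 0.00 in the lowest decile, with 1468 regions higher and 1662 lower per library size. The standard deviation of the log2 ratio in the highest decile was 0.54, where counting error alone gives 0.29. The variance in read counts there was 3.42 times that of counting alone, so regions of like level differed from each other by more than counting error. Without replicates this excess cannot be split into a part from the drug and a part from the libraries.

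**Figure D3:**
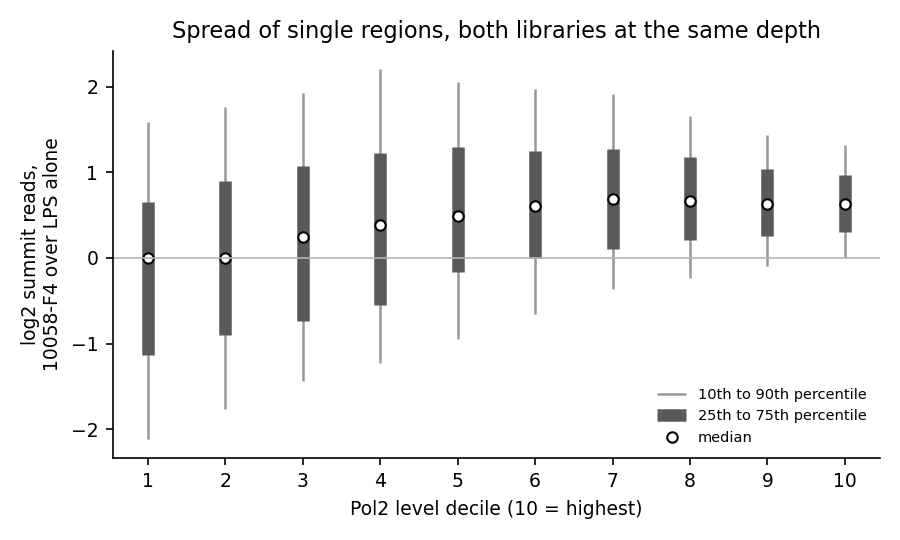
Log2 ratio of summit reads (10058-F4 over LPS alone, equal depth) of single regions in each decile of Pol2 level, with the median, the 25th to 75th percentile and the 10th to 90th percentile. The median lies at 0.00 in deciles 1 and 2 and at 0.63 in decile 10, and the spread narrows as the level increases.

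A difference of at least 2-fold upward was common and the reverse was rare. Of 17791 regions with at least 20 summed summit reads, 5803 (32.6%) were at least 2-fold higher with 10058-F4 and 391 (2.2%) at least 2-fold lower, per library size. Over all 28899 bins of the genome with at least 20 reads these shares were 31.0 and 3.0%, close to those of the regions. A fold of at least 1.5 was reached by 54.9% upward and 5.01% downward, against 51.6 and 6.83% of the bins. The share that was 2-fold higher was 38.3% in the seventh decile and 24.3% in the highest (850 of 3505). The share that was 2-fold lower stood above the share of all regions in the sixth decile, with 218 regions (6.22%), and below it in the highest, with 8 (0.228%).

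To see how far the extremes repeated, regions with at least 60 summed reads were ranked on a random part of the reads and read again in the remaining reads of the same libraries. Of 6600 such regions, the 660 with the lowest ratios averaged 0.718 in the reads that chose them and 1.05 (1.03 to 1.08) in the others. The 660 with the highest ratios averaged 3.80 in the choosing reads and 2.47 (2.41 to 2.53) in the others, where all regions averaged 1.55. The order of the extremes was thus kept in the unused reads, at a smaller distance from the mean. The 660 lowest were, in those reads, close to equal in both libraries and not lower with 10058-F4. These reads come from the same 2 libraries and carry no information on replicates.

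The 5 regions with the highest ratios were 500 to 2000 bp long, against a median of 500 bp over all regions. Some were not called with LPS alone, which a choice for high ratios favours. A region at chr12:85135000-85136499 had 44 unused reads with 10058-F4 and 3 with LPS alone, a ratio of 14.7 (4.70 to 73.8). At chr12:73763000-73763499 the counts were 41 and 3, a ratio of 13.7 (4.36 to 69.0). Neither summit was called in the library with LPS alone, and the whole summit counts were 81 against 5 and 77 against 5. Their summits held 0 to 3 IgG reads in either control. Weaker in the unused reads were chr11:83455000-83456999, with 31 against 7 reads, and chr11:78909000-78909499, with 27 against 8. For chr13:113781000-113781999 the unused counts were 16 and 8, and the interval of the ratio (0.808 to 5.40) held 1.

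At the other end, 5 regions were chosen for the lowest ratios. The counts in unused reads at chr4:44986000-44987499 were 8 with 10058-F4 and 36 with LPS alone, a ratio of 0.222 (0.0892 to 0.486). At chr2:34762000-34771499, a region of 9500 bp, they were 9 and 35, and at chr16:84595500-84601999 they were 7 and 28. These 3 stayed below 1 over their whole interval. The remaining pair had intervals that held 1: chr11:51676000-51677999 with 9 and 19 reads, and chr7:99342500-99343999 with 19 and 27. The last was also a site of Myc reads, with 33 and 26 reads in the Myc libraries of cells given LPS alone and 7 in the Myc library with 10058-F4, within 1 kb of sequence around the summit. At chr16:84595500-84601999 both Myc libraries without the drug had 0 reads and the one with it had 4, so that site carried almost no Myc reads.

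The most heavily occupied regions did not all differ in the same way. The highest summit was at chr13:43795000-43819999, with 70.2 reads scaled to library size (RPM) with 10058-F4 and 87.5 RPM with LPS alone, a ratio of 0.803 (0.651 to 0.989). It is also the longest region, and its reads 500 to 2500 bp from the summit were 132 and 290. At chr12:56403000-56411999 the summit counts were 146 and 150, a ratio of 0.973 (0.770 to 1.23). Both regions therefore lay below the 1.61 of their decile. The region at chr7:30125000-30134999 had 185 and 109 summit reads and that at chr17:33727000-33731999 had 184 and 107, ratios of 1.70 (1.33 to 2.17) and 1.72 (1.35 to 2.20). At chr8:87865500-87871499 the summits had 70.2 and 61.0 RPM, and at chr2:127023500-127031499 63.5 and 57.2 RPM, with intervals that held 1. All 6 regions had between 0 and 7 IgG reads at the summit in either control.

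Domains were wider with 10058-F4 by the length of the run of called bins. The run of bins that each library called on its own around the summit averaged 684 bp with 10058-F4 and 390 bp with LPS alone, counting a run of 0 where the summit was not called, a ratio of 1.76. At the highest level the means were 1684 and 1244 bp, a ratio of 1.35. Among the 13367 regions called in both libraries the means were 1167 and 877 bp, and 5420 were wider with 10058-F4, 1017 narrower and 6930 equal. The run of called bins can lengthen with the number of reads in peaks. A width without a call, that of the mean profile at 50% of its height, could not be read from the reads that placed the summits, since the 500 bp window that places a summit bounds it. In the reads that took no part in placing summits this width was 420 bp with 10058-F4 and 435 bp with LPS alone over all regions, and 459 and 461 bp in the highest decile. It was the smaller with 10058-F4 in all 10 deciles, by factors of 0.870 to 0.994. It describes the core of the peak and not the extent of the domain, and the shorter fragments of the library with 10058-F4 move with it; their part was not tested.

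To compare runs at like read numbers in peaks, the library with 10058-F4 was reduced to 1639393 reads, at which both libraries held equal numbers in occupied bins. The mean run was then 568 bp against 390 bp, a ratio of 1.46, and in the highest decile 1531 against 1244 bp, a ratio of 1.23. In the lowest pair of deciles the ratios were then 0.627 and 0.955. At this setting the mean run was longer with 10058-F4 from the third decile upward. The reduced library held fewer reads in all, so its bins were called against a lower rate, which favours longer runs. The part of this in the ratio was not tested. Uncalled summits also entered the means, and 62.0% of summits were called with 10058-F4 against 47.9% with LPS alone. The setting of equal reads in peaks was added after the data were seen. At equal depth, the ratio of called width was 1.28 with the other IgG libraries and 1.23 without IgG in the call.

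The largest gains in called width, chosen for that gain and given as a description, were at chr15:72973500-72986499 (1000 bp with LPS alone and 13000 bp with 10058-F4), chr15:101094000-101104999 (1000 and 11000 bp) and chr4:130184000-130193499 (1500 and 11000 bp). Their summits held 55 against 45, 111 against 88 and 90 against 36 reads, so the first pair had summit ratios of 1.22 (0.809 to 1.85) and 1.26 (0.945 to 1.69) with intervals that held 1. At chr11:69211000-69228499 the run grew from 5000 to 14500 bp and the summit had 132 against 81 reads.

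The largest losses were at chr13:43795000-43819999 (25000 bp with LPS alone and 8500 bp with 10058-F4), chr7:44703000-44714999 (9000 and 3000 bp), chr16:84595500-84601999 (6500 and 1000 bp) and chr4:43463000-43469999 (7000 and 2000 bp). At chr7:44703000-44714999 the summit had 76 reads with 10058-F4 and 171 with LPS alone, and the flanks had 122 and 517. At chr4:43463000-43469999 the run was shorter although the summit was higher, with 102 against 65 reads. Called width and summit height therefore moved in opposite directions at that region, while its flanks had 87 reads with 10058-F4 and 85 with LPS alone.

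The flanks, taken 500 to 2500 bp from the summit on both sides, followed the summits closely. Over all regions the flank-to-summit ratio of reads per base was 0.125 with 10058-F4 and 0.123 with LPS alone, a ratio of 1.01 (1.01 to 1.02). This sum joined opposite ends of the scale of Pol2 level. In the lowest decile the flank-to-summit ratios were 0.391 and 0.255, a ratio of 1.54 (1.48 to 1.59), and in the highest they were 0.0696 and 0.0738, a ratio of 0.942 (0.931 to 0.954). With values from reads that took no part in choosing the regions, the lowest decile had 0.463 and 0.439, a ratio of 1.06 (0.996 to 1.12) whose interval held 1, and the highest 0.0784 and 0.0851, a ratio of 0.922 (0.905 to 0.940). Over all regions it was then 0.971 (0.961 to 0.980). No excess beyond counting error was thus seen in the lowest decile of those reads, which does not hold the same regions as that of all reads. The sum over all regions changed side with the processing: it was 0.913 with the other IgG libraries as controls and 0.864 without subtraction of IgG. The value of the highest decile was below 1 in all 17 alternatives tried, between 0.855 and 0.951. These alternatives process the same 2 Pol2 libraries and carry no information on replicates.

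The signal was also taken at increasing distance from the summit. Beyond 250 bp from the summit, IgG-subtracted Pol2 reads were higher with 10058-F4 in every decile and every distance class up to 5000 bp, by a factor of 1.40 to 1.91. In the lowest decile the factor was 0.947 within 250 bp, 1.52 at 250 to 500 bp and 1.52 at 2500 to 5000 bp. Close to the summit these factors rested on the subtraction of IgG. Without it they were 1.03 at 250 to 500 bp in the lowest decile, 1.08 in the second and 1.12 in the third. In reads that took no part in choosing the regions, the IgG-subtracted factors of the lowest decile were 1.48 within 250 bp, 1.47 (1.33 to 1.62) at 250 to 500 bp and 1.52 at 2500 to 5000 bp. Summit and surroundings were there higher by like factors after subtraction only. Without it the factors were 1.31, 1.14 and 1.24 at these distances, the highest at the summit. In the highest decile the factor was 1.61 within 250 bp, 1.48 at 250 to 500 bp, 1.50 at 500 to 1000 bp, 1.52 at 1000 to 2500 bp and 1.45 at 2500 to 5000 bp. Without subtraction of IgG these factors were 1.54, 1.35, 1.35, 1.29 and 1.19. The summit there exceeded its surroundings by a margin, but the surroundings were higher with 10058-F4 as well.

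Neighbouring regions contribute to flanks, since 24657 of the 35056 regions had another summit within 10 kb. Among the 10399 others the flank-to-summit ratios were lower in both libraries, 0.0411 with 10058-F4 and 0.0377 with LPS alone, and their ratio was 1.09 (1.07 to 1.11). Ranked anew into deciles, these isolated regions gave 1.53 (1.33 to 1.76) in the lowest and 0.947 (0.920 to 0.974) in the highest. Both ends were close to those over all regions, but the ratio stayed higher in between: it was 1.62, 1.52, 1.81, 1.68 and 1.40 in deciles 2 to 6 of the isolated regions, and 1.10, 0.993 and 1.01 in deciles 7 to 9. The same reads chose, ranked and measured these regions, and they were not measured in unused reads. Over all regions the ratio was 1.54 and 1.37 in the first and second decile with the same reads. It was 1.06 and 0.975 in those deciles with unused reads, which do not hold the same regions. Reads on the denser flank, taken as the side with more reads in both libraries together, were 3.30 times those on the sparser flank with 10058-F4 and 3.32 times with LPS alone in the highest decile. They were 3.34 and 3.54 times in the ninth, 3.41 and 3.72 in the eighth, 3.61 and 3.72 in the fifth, and 4.15 and 4.08 in the lowest.

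The longest regions showed the smallest difference. Summed over the whole region, the ratio of 10058-F4 to LPS alone was 1.46 (1.45 to 1.47) for the 20284 regions of 1 bin, 1.61 for regions of 2 bins and for those of 3 to 4 bins, and 1.54 (1.53 to 1.55) for 1282 regions of 5 to 9 bins. For the longest 0.445% of regions, those of at least 10 bins or 5000 bp, it was 1.31 (1.29 to 1.33). In these longest regions the summit ratio was 1.43 (1.38 to 1.47) and the ratio of the reads more than 500 bp from the summit was 1.28 (1.26 to 1.30). The same order of summit and remainder held for the other classes where it could be taken: 1.66 and 1.55 for 3 to 4 bins, and 1.58 and 1.52 for 5 to 9 bins.

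Single regions were counted by length as well. The median log2 ratio was 0.36 (0.22 to 0.50) in the longest regions and 0.59 (0.57 to 0.60) in regions of 3 to 4 bins. Among them 40 (25.6%, 18.99 to 33.2%) had fewer reads with 10058-F4, against 13.6% (12.7 to 14.6%) of regions of 3 to 4 bins. The regions of 1 bin had the same median as the longest, 0.36, and a larger share with fewer reads, 34.9%. The classes differ in level, with a median of 121 summed summit reads in the longest, 65 in regions of 3 to 4 bins and 13 in those of 1 bin. Within the highest decile of level, the summit ratio was 1.41 (1.36 to 1.45) for 114 regions of at least 10 bins and 1.65 (1.64 to 1.67) for 1656 regions of 3 to 4 bins.

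**Figure D4:**
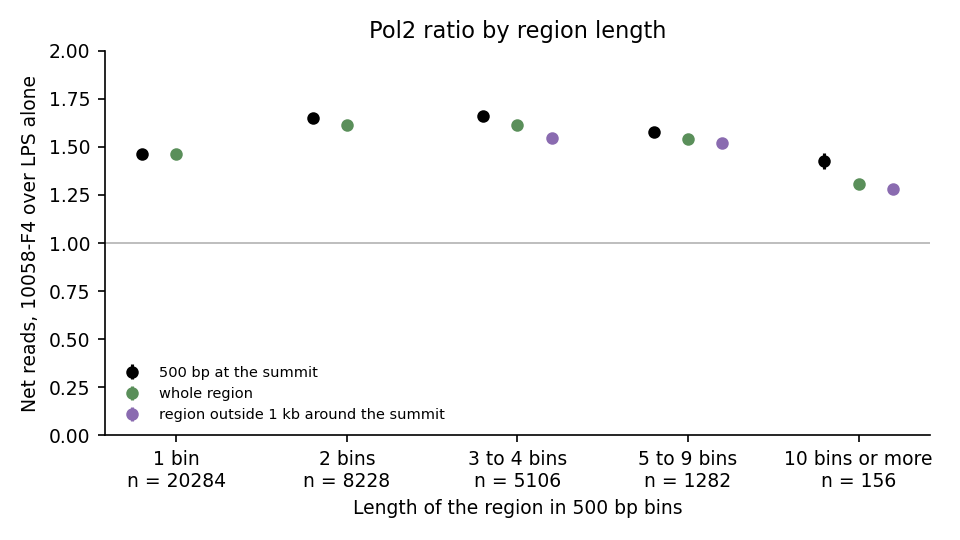
Ratio of IgG-subtracted Pol2 reads (10058-F4 over LPS alone) by the length of the region in 500 bp bins, for the 500 bp at the summit, the whole region and the region outside 1 kb around the summit, with bars for 95% counting intervals. Ratios are lowest in the class of 10 bins or more, at 1.43 for the summit, 1.31 for the whole region and 1.28 for the remainder.

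Because 10058-F4 acts on the pairing of Myc with Max, the Pol2 ratio was also set beside Myc. Within each decile of Pol2 level the regions were split into 3 groups of equal size, with low, middle and high Myc, by the RPM of Myc over 1 kb at the summit, as the mean of both Myc libraries of cells given LPS alone. These libraries share no reads with the Pol2 libraries. At the highest Pol2 level the high-Myc group held 7.26 and 4.15 RPM of Myc in replicates 1 and 2, and 2.51 RPM in the library with 10058-F4. The low-Myc group held 1.77 and 1.60 RPM, and 1.74 RPM with 10058-F4. The second IgG library with 10058-F4 held 1.50 RPM in the high-Myc group and 1.32 RPM in the low-Myc group. The groups thus stood farther apart in the libraries that ranked them than in the library with the drug, which took no part in the ranking.

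The Pol2 ratio was smaller where Myc was higher, over all regions and from the sixth decile of Pol2 level upward. Over all regions it was 1.67 (1.66 to 1.68) in the low-Myc group, 1.60 (1.59 to 1.61) in the middle and 1.50 (1.49 to 1.51) in the high-Myc group. At the highest Pol2 level the values were 1.74 (1.72 to 1.76), 1.62 (1.60 to 1.64) and 1.48 (1.47 to 1.50). The same order was found in deciles 6 to 9. The reverse was found in the lowest 3 deciles, with 0.837 (0.799 to 0.876), 0.975 and 1.04 (0.992 to 1.09) in the lowest of all. The fourth decile had neither order, with 1.38, 1.39 and 1.33 from low to high Myc. In the fifth the low-Myc group was the lowest, with 1.50, 1.57 and 1.57. Thus Pol2 was higher with 10058-F4 in every Myc group of the highest decile, and least so at the sites with most Myc. Mean Pol2 level still differed between these groups, from 105.7 summed reads at low to 119.0 at high Myc.

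The order depended on the library that ranked the regions. The Pol2 ratio of the high over that of the low group, over all regions, was 0.901 with both Myc libraries, 0.910 with replicate 1 alone and 0.936 with replicate 2 alone. Ranked by the Myc library with 10058-F4 it was 1.005 (0.995 to 1.01), and by IgG replicates 1 and 3 of cells given LPS alone 0.992 (0.982 to 1.00). Ranked by the second IgG library with 10058-F4 it was 1.07 (1.06 to 1.08). No order beyond counting error was thus seen over all regions with the Myc library of drug-treated cells or with the controls of cells given LPS alone, and the reverse order with the control of drug-treated cells. These 3 rankings were added after the data were seen. Within the highest Pol2 decile the values were 0.852 with both Myc libraries, 1.03 with the Myc library of drug-treated cells, 0.942 with the IgG libraries without the drug and 1.06 with the IgG library with it. In that decile the controls of cells given LPS alone thus gave the same direction as Myc, with a smaller difference. The occupied bins held 3.90% of the reads of the Myc library with 10058-F4 and 3.20% of those of the second IgG library with 10058-F4. A ranking by that Myc library can thus follow background reads as well as Myc. Libraries from the same cell state may share features other than Myc, and their part in the order was not tested.

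**Figure D5:**
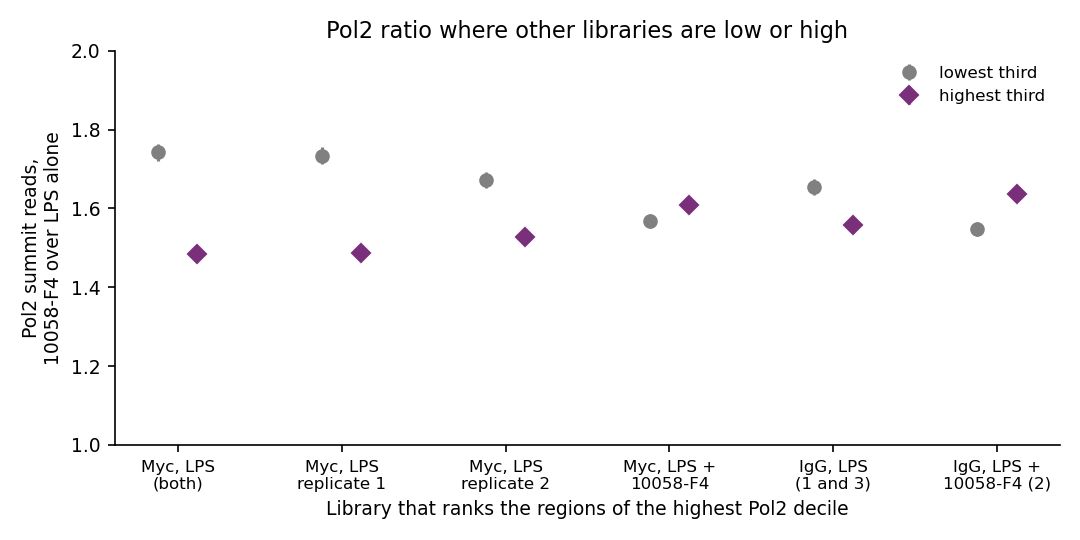
Pol2 summit ratio (10058-F4 over LPS alone) in regions of the highest Pol2 decile that have the fewest reads or the most in each of 6 library sets, with bars for 95% counting intervals; the vertical axis starts at 1. With the Myc libraries of cells given LPS alone the high group lies below the low one, at 1.48 against 1.74, and with the Myc library of drug-treated cells the order is the reverse.

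The order by Myc was also taken within classes of length. In regions of 3 to 4 bins of the highest decile the Pol2 ratio was 1.79 (1.75 to 1.82) at low Myc and 1.53 (1.51 to 1.56) at high Myc. In regions of at least 10 bins it was 1.72 (1.63 to 1.82) in 43 regions of low Myc, 1.22 (1.16 to 1.29) in 37 of middle and 1.33 (1.26 to 1.40) in 34 of high Myc. The middle group was thus the lowest among the longest regions. Limited to regions of at most 4 bins, the high over the low group gave 0.905 over all levels. The flank-to-summit ratio in the highest decile, set against LPS alone, was 1.00, 0.912 and 0.900 at low, middle and high Myc.

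The differences between libraries of 1 group and antibody at the same regions can be set beside these values. Summit RPM in Myc replicate 2 were 0.695 times those in replicate 1, both from cells given LPS alone, and 0.687 times in the highest decile. IgG replicate 2, the control used here for LPS alone, held 1.45 times the reads of replicate 1 over all regions and 2.41 times in the highest decile, and replicate 3 was 0.644 times replicate 2. Both IgG libraries with 10058-F4 differed less, with a ratio of 0.960. The Pol2 ratio without subtraction of IgG was 1.49 over all regions and 1.54 in the highest decile. These pairs are not all alike: reads on chromosome X were 36.8% of those on chromosome 3 in IgG replicate 2 but 66.4 and 65.9% in replicates 1 and 3, and 38.7 and 60.1% in the 2 IgG libraries with 10058-F4. Among the pairs compared, those without IgG replicate 2 gave the 0.695 of Myc and the 0.960 of IgG with 10058-F4. IgG replicates 1 and 3 were not compared as a pair, and held 0.518 and 0.484 summit RPM over all regions. The flank-to-summit ratio changed 0.810 to 0.997 times between libraries of 1 group over all regions, and 0.864 times between the Pol2 libraries. In the highest decile it changed 0.855 times between the Pol2 libraries, likewise without subtraction of IgG. Between libraries of 1 group it changed there 0.857 times for Myc and 0.924 times for IgG with 10058-F4. For IgG with LPS alone it changed 0.477 times from replicate 1 to 2 and 1.23 times from replicate 2 to 3. Read lengths differ between the first Myc and IgG libraries, at 24 to 30 bases, and the others, at 45, so those pairs differ in more than the preparation.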

How the data were processed

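Reads were aligned to mm8, with CASAVA 1.0 and Bowtie 0.12.7 named as tools, per the submitters' processing notes. The authors deposited aligned reads, 1 line per read, with positions and the read length, and no counts, calls or normalised values; these coordinates were used as given, and whether they count from 0 or 1 is not stated. No other tool setting is given in the sources used here. One read was kept per 5′ end and strand, which removed 5.29% of Myc replicate 1, 0.0808% of IgG replicate 1 and none of the other libraries used. Reads on chromosomes 1 to 19 were moved by 0.5 of the strand offset, and Pol2 and IgG libraries were thinned with a fixed seed (numpy 2.4.6, scipy 1.17.1, pandas 2.3.3, matplotlib 3.10.9).

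Bins of 500 bp were called with a one-sided Poisson test of the summed Pol2 libraries against whichever rate was highest: the mean over the genome, or that of IgG in the bin, in 5000 bp or in 10000 bp (Benjamini-Hochberg below 0.01, at least 4-fold), with IgG scaled by 10000 bp background bins. Log2 ratios of single regions had 0.5 reads added. Intervals are 95% exact binomial, order-statistic for medians, and from Poisson variances for IgG-subtracted ratios. The measures were tested on simulated data with known height and flank ratios. Regions named are the 6 with most summit reads, the 5 with the highest and lowest ratio on part of the reads, and the 4 with the largest gain and loss of width. Comparisons and lists were chosen with earlier results of these data known.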

Additional observations from a re-analysis of the deposited data

How the results depend on the processing

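No paired analysis was possible because each group had 1 Pol2 library and no test was made. All values are 10058-F4 over LPS alone, for the share of reads in occupied bins (1.45), peak height (1.59), called width (1.76), the flank-to-summit ratio over all regions (1.01) and the high over the low Myc group (0.901). Where a value changed, the cause was not tested.

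The share ranged from 1.28 to 2.22 over 13 alternatives, peak height from 1.41 to 2.45 over 17, and neither went below 1. The share was 1.41 with the other IgG libraries, 1.40 without IgG in the call, 2.22 scaled to background bins, 1.46 without thinning, 1.28 in bins of LPS alone, 1.62 in bins of 10058-F4 alone, 1.48 with an 8-fold and 1.44 with a 2-fold call, 1.43 with 1000 bp bins, 1.46 without read shift, 1.47 in isolated regions and 1.82 with each library in its own bins. In the same order, height was 1.47 with the other IgG libraries, 1.49 without IgG subtraction, 2.45 scaled to background bins, 1.63 without thinning, 1.41 and 1.77 in bins of LPS alone and of 10058-F4 alone, 1.61 with an 8-fold call, 1.60 with 1000 bp bins, 1.61 without read shift, 1.60 in isolated regions and 1.63 in a narrower summit window. Corrected for occupied positions it was 1.66, as it was in regions with at least 20 reads and with values from reads that did not choose the regions.

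Called width was 1.28 with the other IgG libraries, 1.23 without IgG in the call, 2.38 scaled to background bins, 3.02 without thinning, 1.23 and 2.02 in bins of LPS alone and of 10058-F4 alone, 2.33 with an 8-fold and 1.70 with a 2-fold call, 1.82 with 1000 bp bins, 1.79 without read shift and 1.60 in isolated regions. It was 1.17 for domains of each library on its own, 1.68 in regions with at least 20 reads and 1.46 at equal reads in peaks. Width at 50% of the height turned the direction, at 0.957, but the window that places the summit bounds it there; in reads that did not place the summits it was 0.965. Neither measures the extent of a domain.

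The flank-to-summit ratio over all regions went below 1 in 9 of 18 alternatives: 0.971 with values from reads that did not choose the regions, 0.913 with the other IgG libraries, 0.864 without IgG subtraction, 0.949 in bins of 10058-F4 alone, 0.995 with an 8-fold call, 0.999 without read shift, 0.991 with flanks of 2000 to 5000 bp, 0.991 corrected for occupied positions and 0.995 in regions with at least 20 reads. It was 1.00 without thinning, 1.04 in bins of LPS alone, 1.01 with 1000 bp bins, 1.09 in isolated regions and 1.00 on the denser flank.

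The Myc comparison gave 0.868 scaled to background bins, 0.857 without thinning, and 0.910 and 0.877 in bins of LPS alone and of 10058-F4 alone. Without 1 Myc replicate it was 0.910 to 0.936. Ranked by IgG replicates 1 and 3 it was 0.992, and it turned to 1.005 ranked by the 10058-F4 Myc library and to 1.07 ranked by 10058-F4 IgG replicate 2. Of the regions chosen for an extreme ratio, the choosing reads gave ratios of 19 at chr11:83455000-83456999, 18.0 at chr13:113781000-113781999, 0.147 at chr11:51676000-51677999 and 0.179 at chr7:99342500-99343999, all farther from 1 than the unused reads. The occupied-position, 20-read, equal-read, split-read and other ranking settings were added after seeing the data. At 4 reads per summit, as in the lowest decile, this depth cannot show a difference at a single region.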

Other observations

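The excess of Pol2 with 10058-F4 was present on each chromosome. Over the 19 chromosomes the IgG-subtracted summit ratio ranged from 1.49 (1.47 to 1.51) on chromosome 11, with 3178 regions, to 1.72 (1.69 to 1.75) on chromosome 1, with 2096 regions. In the highest decile of level it ranged from 1.52 (1.48 to 1.56) on chromosome 7 to 1.79 (1.71 to 1.86) on chromosome 18. The extremes differed by more than counting error.

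Reads of the Myc libraries at the summits of Pol2 regions, without subtraction of IgG, differed with 10058-F4 by Pol2 level. The Myc library with 10058-F4 held 0.942 times the summit RPM of Myc replicate 2 over all regions, 1.32 times in the lowest decile and 0.712 times in the highest. In the lowest decile these were 0.397 and 0.301 RPM, against 0.369 in the second IgG library with 10058-F4 and 0.316 in IgG replicate 3. The 1.32 thus compares values at the level of the controls and does not describe Myc. In the highest decile they were 1.48 and 2.08 RPM, against 0.932 and 0.745 for IgG. Myc replicate 2 itself held 0.698 and 0.687 times those of replicate 1 in these deciles. Its flank-to-summit ratio in the highest decile was 0.146, against 0.213 with 10058-F4 and 0.170 in replicate 1.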
